A study of Mus musculus with 5 samples.

Results

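The autosomal compartment profile of hippocampal neuronal nuclei in the Early state was set against that of the Basal state, bin by bin. The measure was PC1, the first principal component of a Hi-C contact matrix, given in 50 kb bins of the mouse build mm9. Members were all bins of chromosomes 1 to 19 that carried a PC1 value in each of the 5 libraries of the series. There were 47334 such bins (2367 Mb), out of 51811 bins listed in any library and 50542 listed in all. Whether a bin belonged to the set did not depend on its value.

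Basal had 2 libraries, Early 1 and Late 2, as named in their titles, and no second Early library was among them. All groups carried the same labels. The mice joined ArcCreERT2, a tamoxifen-dependent Cre under the Arc promoter, with R26R-STOP-floxed eYFP, a yellow reporter that Cre switches on. Their genotype was given as +/+ and their treatment as foot shock and collection on day 0, without recall. The protocol describes a dose of 4-hydroxytamoxifen 1 h before contextual fear conditioning and collections 1.5 to 2 h or 5 days after it, so the times of Basal, Early and Late are known only from the group names. Fixed hippocampal nuclei were sorted after staining for GFP and for the neuronal marker NeuN. The labels do not state which sorted fraction each library holds, nor the age or sex of the mice. Each group pooled 100000 nuclei from 2 animals. The labels call the libraries of a group biological replicates without saying which animals each holds. The eYFP label depends on the Arc promoter, so it marks only neurons that switch Arc on. PC1 is not expression, and no mm9 gene annotation was used, so neither cell type markers nor genes were placed in bins.

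Hi-C ligates and sequences DNA segments that lie near each other in the nucleus. Its contact maps show a plaid pattern in which megabase stretches of open, gene-rich chromatin (compartment A) meet each other, and stretches of closed, gene-poor chromatin (compartment B) meet each other. PC1 condenses that pattern to a single signed value per bin, positive for A and negative for B by the usual convention. In neurons, compartments are largely set during differentiation, and stimulation is known to change contacts at activity-regulated loci. A slow gradient along a chromosome can also enter PC1, so the main counts are given as deposited and again after subtracting a 10 Mb running mean from each library on each chromosome. Values with no scale named are as deposited.

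In each library PC1 had an SD between 1.00 and 1.01 on every autosome, so compartment strength cannot be compared between libraries. Its mean on an autosome lay at most 0.0129 from 0 in any library. A fall of Early against Basal on part of a chromosome is thus offset by a rise elsewhere on it. Read depth is unknown. Early was the roughest profile: the departure of PC1 from the average of its 2 neighbours at 100 kb distance had an SD of 0.321 in Early, against 0.232 and 0.233 for the Basal pair and 0.203 and 0.298 for the Late pair. Because Early is 1 library, what follows describes that library; it has no replicate check and no p-value.

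Early kept the overall order of the Basal compartments but stood well outside the Basal pair. Over the 47334 bins, PC1 in Early correlated with the Basal mean with a Pearson r of 0.913 (Spearman's rho 0.918), while the Basal replicates correlated at 0.988 (rho 0.986). The bins share libraries and neighbours, so these are descriptions. The median absolute difference of Early from the Basal mean was 0.252 PC1 units, against 0.0956 between the Basal replicates. Its SD was 0.418 against 0.157, a ratio of 2.66. A difference above 0.5 units was found in 9328 bins between Early and Basal (19.7%) and in 263 bins between the Basal replicates (0.556%). A difference above 1 unit was found in 1271 bins and in 1 bin. The ratio was 2.26 once the 10 Mb trend was removed, from SDs of 0.352 and 0.156, and r was then 0.903 against 0.979.

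A bin was counted as past the yardstick when Early lay outside both Basal values and differed from their mean by more than the 99th percentile of the Basal replicate difference, which was 0.448 units as deposited and 0.444 with the trend removed. As deposited, 11459 bins (24.2%, 573 Mb) were past it, 5699 higher in Early, toward A (12.0%), and 5760 lower, toward B (12.2%). After trend removal 9019 bins were past it (19.1%), 4518 higher (9.54%) and 4501 lower (9.51%). On both scales and in the same direction there were 7083 bins (15.0%), 3666 higher (7.74%) and 3417 lower (7.22%). These were 61.8% of the bins past it as deposited and 78.5% of those with the trend removed, and 3 bins changed direction. The mean near 0 of every chromosome favours an even balance of directions, and how far it sets the balance was not tested. The balance of directions changed when chromosome medians were aligned, to 4082 higher and 8247 lower as deposited and to 2969 and 3952 on both scales, with the median of all bins at -0.0779. The Late replicates lay further apart than the Basal ones. Judged by their 99th percentile (0.721 and 0.682 units; chromosome 7 left out), 3860 of 44650 bins remained as deposited (8.65%), 2704 with the trend removed (6.06%) and 1992 on both scales (4.46%). How far the greater roughness of Early contributes to these counts was not tested.

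**Figure D1:**
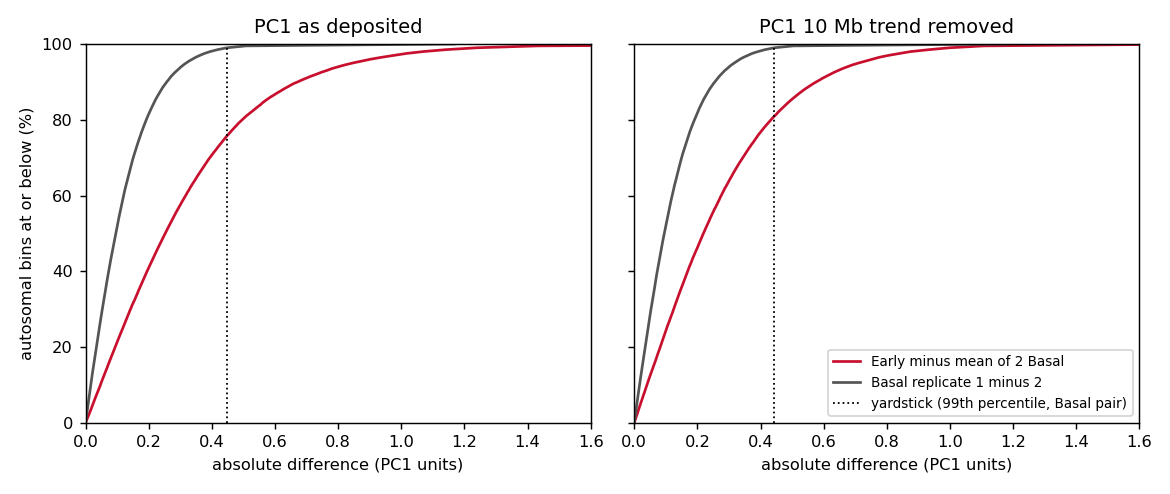
Cumulative share of autosomal bins (vertical axis, percent) against the absolute PC1 difference (horizontal axis, PC1 units), as deposited (left) and with the 10 Mb running mean removed (right), for Early minus the Basal mean (red) and for Basal replicate 1 minus 2 (grey). At the yardstick (dotted line, 0.448 and 0.444) the grey curves have reached 99% of bins, while 24.2% and 19.1% of bins lie beyond it for Early.

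The difference between Early and Basal was regional, whereas that between the Basal replicates was not. At 50 kb, where the 100 kb PC1 windows of neighbouring bins overlap, the difference correlated with itself at 0.819 for Early minus Basal and at 0.491 for the Basal pair. At 100 kb the values were 0.631 and 0.0193. At 500 kb they were 0.467 and 0.00746, and at 1000 kb 0.375 and 0.00108. With the trend removed, Early minus Basal still correlated at 0.246 over 500 kb and 0.115 over 1000 kb, and at -0.0403 over 2000 kb. Early therefore tended to lie on the same side of Basal over stretches of 500 kb and more.

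Joined across a gap of at most 1 bin, the bins past the yardstick on both scales formed 1517 higher and 1603 lower regions. Most were short: regions of 1 or 2 bins held 40.4% of the higher and 47.6% of the lower bins. At the other end, 160 higher and 130 lower regions held at least 5 bins (median length 350 kb in both directions), with 36.6% and 27.5% of the bins. The longest were 2950 kb (higher) and 2450 kb (lower). As deposited, before trend removal, regions of at least 5 bins held 51.5% of the higher and 49.2% of the lower bins, and the longest spanned 4950 kb and 9950 kb.

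Chromosomes differed widely in how far Early departed from Basal. As deposited, the share of bins past the yardstick was highest on chromosomes 19 (53.6%), 16 (53.2%) and 15 (36.6%) and lowest on chromosomes 11 (11.5%), 7 (12.2%) and 6 (12.8%), with a median of 24.5%. On the other scale, chromosomes 18 (34.8%), 13 (34.6%) and 16 (33.9%) led, and chromosome 19 had 24.2%. The lowest were then chromosomes 7 (9.05%), 6 (9.40%) and 11 (9.47%). Chromosomes 6, 7, 11 and 17 were the 4 lowest on both scales. The correlation of Early with the Basal mean ran from 0.736 on chromosome 16 to 0.957 on chromosome 11, and with the trend removed from 0.822 on chromosome 13 to 0.949 on chromosome 7. Between the Basal replicates it was at least 0.968 on every autosome, and at least 0.961 with the trend removed.

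Chromosomes with more bins past the yardstick were also those on which the Basal replicates differed more. Over the 19 autosomes, which share the same 3 libraries, the share with the trend removed correlated with the SD of the Basal replicate difference (Spearman's rho 0.791, Pearson r 0.813; as deposited 0.609 and 0.550). It was higher on chromosomes with fewer bins (rho -0.570, r -0.451; as deposited -0.565 and -0.616). Measured against the Basal pair of the same chromosome, the SD of Early minus Basal was 1.91 to 2.74 times larger with the trend removed, a narrow range. By this ratio the order was not that of the shares. Chromosome 7, the lowest by share with the trend removed, had the highest ratio (2.74), and chromosome 18, the highest by share, had 1.91. The order was not reversed either: chromosomes 13 and 16, next by share, had ratios of 2.74 and 2.57, above the median of 2.30. As deposited the ratio ran from 2.01 on chromosome 3 to 4.35 on chromosome 19.

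**Figure D2:**
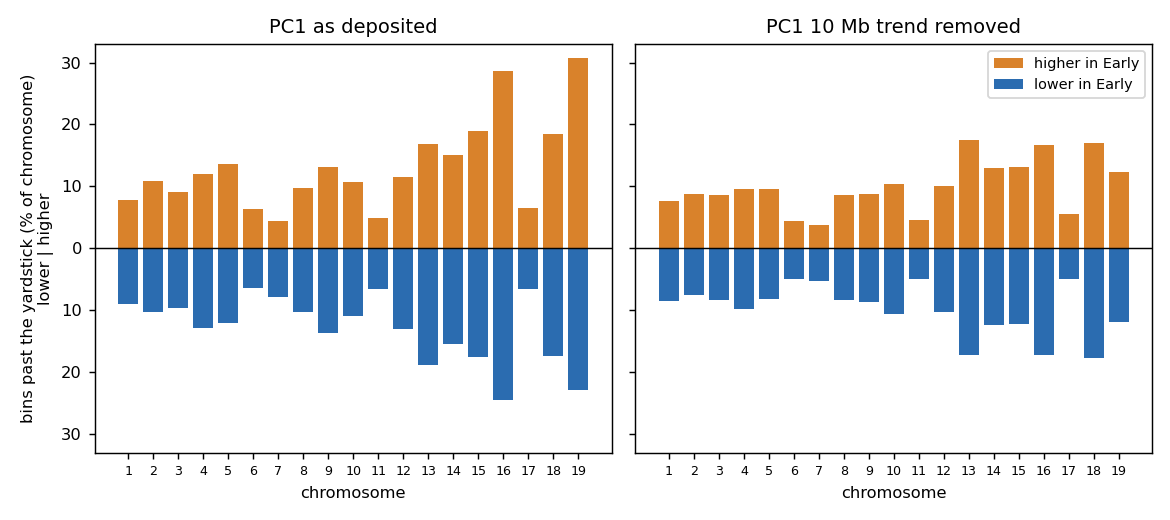
Share of each autosome's bins past the yardstick (vertical axis, percent; above 0 higher in Early, below 0 lower) by chromosome (horizontal axis), as deposited (left) and with the 10 Mb running mean removed (right). Chromosomes 16 and 19 stand out as deposited with 53.2% and 53.6% in all, and chromosomes 13, 16 and 18 lead with the trend removed at 33.9% to 34.8%.

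Part of the difference was a slow wave along the chromosome. The 10 Mb running mean held 23.9% of the variance of Early minus Basal over all bins, but 1.43% of that between the Basal replicates. By chromosome, the share ran from 7.49% to 59.3%, with a median of 14.3%. Chromosomes 19 (59.3%) and 16 (47.3%) were highest, followed by 15 (33.4%), 9 (32.2%) and 5 (28.0%). In 250 blocks of 10 Mb, the mean PC1 of Early differed from Basal by more than 0.3 units in 25 blocks and by more than 0.5 in 8. No block differed by more than 0.0635 between the Basal replicates.

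On chromosome 16, the block from 30 to 40 Mb had a mean PC1 of 0.926 and 0.944 in Basal replicates 1 and 2, and -0.163 in Early. The block from 0 to 10 Mb had 0.870 and 0.854 in Basal and 0.00628 in Early. Early lay above Basal further along, with -0.0197 from 50 to 60 Mb against -0.541 and -0.529, and 1.49 in the last block from 90 Mb against 1.11 in both Basal libraries. From 30 to 40 Mb, Late replicate 1 (0.985) lay near Basal and Late replicate 2 (0.769) somewhat below it, both far above Early. From 0 to 10 Mb, both Late libraries lay between Early and Basal (0.279 and 0.260). Comparisons with Late use the same Basal libraries.

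On chromosome 19, the blocks from 0 to 10 Mb and from 10 to 20 Mb were higher in Early. They had 0.361 and 0.404 in Basal against 1.03 in Early, and -0.476 and -0.465 against 0.129. The block from 40 to 50 Mb was lower, with 0.445 and 0.432 in Basal and -0.611 in Early. Both Late libraries lay beside Basal in that block, at 0.415 and 0.378. The blocks from 20 to 30 Mb and from 50 to 60 Mb differed by 0.0850 and 0.112. The wave therefore ran from above Basal in the centromere-proximal part to below it between 30 and 50 Mb, and back. Because every library averages close to 0 on each chromosome, parts below Basal have to come with parts above it.

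**Figure D3:**
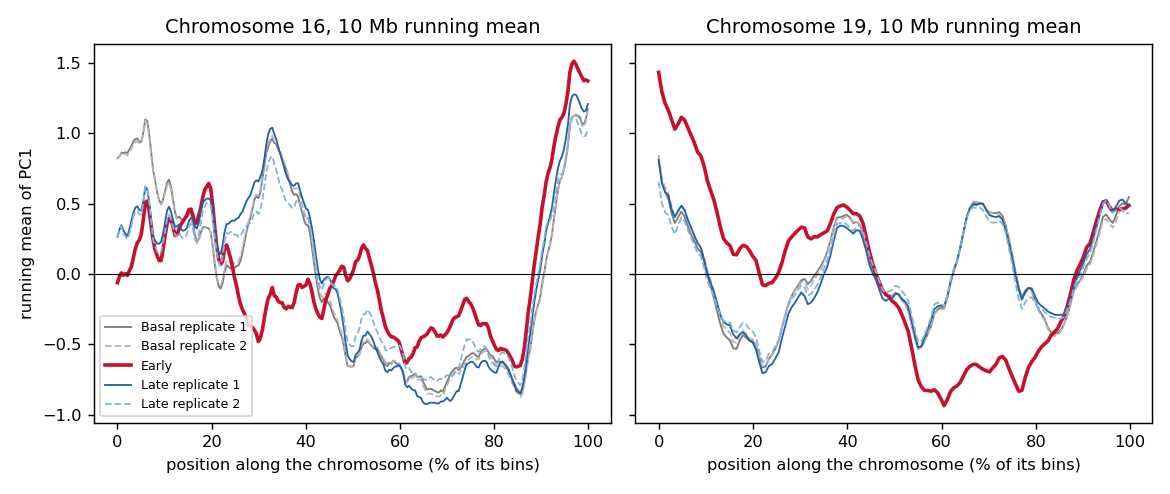
10 Mb running mean of PC1 (vertical axis, PC1 units) along chromosomes 16 (left) and 19 (right), with position as a percent of the bins of the chromosome (horizontal axis), for the 5 libraries. The Early curve (red) leaves the 2 Basal curves (grey) by up to -1.10 on chromosome 16 and -1.18 on chromosome 19, while the Basal curves stay within 0.0651 and 0.0559 of each other.

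The 3 longest stretches past the yardstick in each direction lay on chromosomes 13, 15, 16 and 19. Over the bins inside each, Early correlated with the Basal mean at 0.775 to 0.964, below the 0.937 to 0.988 between the Basal replicates there. Chromosome 19 from 38050001 to 48000000 (9950 kb) averaged 0.543 and 0.545 in the Basal libraries and -0.665 in Early over its 194 bins past the yardstick. Across all 199 bins of the stretch, Early still correlated with the Basal mean at 0.898. Its 147 bins of Basal compartment A averaged 1.03 in Basal and -0.301 in Early, and its 52 bins of compartment B -0.928 and -1.70. Both compartments were thus lower in Early, and A bins stayed above B bins.

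Chromosome 16 from 30750001 to 37950000 (7200 kb) was similar, with 1.03 in each Basal library and -0.312 in Early over its 144 bins. Early correlated with Basal at 0.834 within the stretch, and 51 of the 144 bins were positive in Early. Chromosome 15 from 74350001 to 79500000 (5150 kb) had 1.23 and 1.19 in Basal and 0.233 in Early, with an r of 0.862 within the stretch. It stayed in compartment A on average. After trend removal, these 3 stretches differed by -0.240, -0.295 and -0.239.

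The longest higher stretch was on chromosome 16 from 49700001 to 54650000 (4950 kb), at -0.499 and -0.506 in Basal and 0.582 in Early. Early correlated with Basal at 0.788 within it. Of its 98 bins past the yardstick, 67 were in B in both Basal libraries and in A in Early. Chromosome 19 from 9050001 to 12400000 (3350 kb) had -0.383 and -0.341 in Basal and 0.492 in Early, and an r of 0.964 within the stretch, the highest of the 6 long stretches. The other, on chromosome 13 from 70750001 to 74100000 (3350 kb), had -0.236 and -0.221 in Basal and 1.09 in Early, and the lowest r of the 6, at 0.775. Its difference was 1.32 as deposited and 0.963 after trend removal, against 0.429 and 0.198 after removal for the other 2.

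The direction of the difference varied with the place of a bin in the Basal compartments. The bins were divided into 5 equal groups by their Basal mean. In the group deepest in A (Basal mean 1.45), Early averaged 1.26; 22.5% of bins were past the yardstick in the lower direction and 3.40% in the higher. In the next group (Basal mean 0.700), 16.4% were lower and 12.7% higher. In the group around the border (Basal mean -0.134), 20.4% were higher and 9.63% lower. In moderate B (Basal mean -0.764), 15.7% were higher and 5.30% lower. The group deepest in B had the fewest bins past the yardstick, with a mean of -1.25 in Basal and -1.24 in Early and 7.99% higher and 6.98% lower. The same yardstick served all groups, and the Basal replicates also differed least in this one. The SD of their difference was 0.129 there, against 0.142 to 0.180 in the other groups. The SD of Early minus Basal was 0.327, against 0.377 to 0.444.

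Grouping by a value that enters the difference pulls it toward the middle. With bins grouped by 1 Basal library and Early compared with the other, the deepest A group differed by a median of -0.151 or -0.149 and the moderate B group by 0.0980 or 0.106. This grouping does not remove the pull that comes from an r below 1 between libraries of equal SD (0.913 for Early and the Basal mean). How much of these medians that pull makes up was not tested. After trend removal, 13.0% of the deepest A bins were lower and 3.63% higher, and the next group was even, with 11.5% each way. The border group had 16.8% higher and 9.22% lower, and moderate B 10.7% and 5.75%. The deepest B group then leaned to lower, with 8.07% against 5.12% higher. The shift of the mean from Basal was thus larger in the deepest A group than in the deepest B group, under a scaling that sets the SD of every chromosome to 1.

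Counting signs alone, 4155 bins (8.78%) had the opposite sign in Early to both Basal libraries. Of these 2499 (5.28%) were in B in Basal and in A in Early, and 1656 (3.50%) the reverse. These were 10.2% of the 24569 bins in B in both Basal libraries and 7.82% of the 21185 in A in both. The Basal replicates disagreed in sign on 1580 bins (3.34%). The B to A majority of 60.1% was absent under other scalings, which gave 2100 and 2112 bins for aligned chromosome medians, and 2013 and 2030 for quantile normalization. After trend removal 5106 bins (10.8%) were of opposite sign: 2793 went from B to A (5.90%), and 2313 went the other way (4.89%). Bins of opposite sign had small Basal values: the absolute Basal mean had a median of 0.309 among B to A bins and 0.325 among A to B bins as deposited, and of 0.223 and 0.234 after trend removal. Of the 4155 as deposited, 2892 were also past the yardstick.

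These sign changes formed 1067 runs in the B to A direction and 775 in the reverse one, with median lengths of 100 kb and 50 kb. Runs of at least 500 kb numbered 17 and 14, and the longest spanned 2250 kb and 1350 kb. Chromosomes 16 and 19 had the highest shares of opposite sign (22.3% and 21.9%), followed by 15 (11.5%) and 13 (11.3%), and chromosome 6 had the lowest (4.79%). On chromosome 4, 6.68% of bins were B to A and 1.55% A to B. A to B was the more frequent on chromosomes 7 (3.76% against 2.01%), 11 (4.04% against 1.89%) and 19 (11.3% against 10.6%), and on no other autosome.

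Compartment borders, the places where the sign of PC1 changes between neighbouring bins, were compared as well. The Basal replicates shared 1647 borders to within 50 kb. Early had a border of the same orientation within 50 kb of 51.4% of these, within 100 kb of 63.2% and within 500 kb of 86.5%. After trend removal 2397 borders were shared, and the shares were 58.5%, 71.2% and 92.4%. Within 100 kb, 80.3% of the borders of Basal replicate 1 were found in replicate 2, and 56.2% in Early. The shares within 500 kb have no Basal replicate value beside them. Early had so many borders that a reach of 500 kb on either side can often meet 1 by position alone. The share that position alone would give was not computed. Early had more borders in all, 2953 against 2235 and 2194 (4774 against 3306 and 3424 after trend removal), and 1867 of the 2953 had no shared Basal border within 100 kb. A border found in only 1 Basal library was not counted as shared. Early was also the roughest profile (0.321), and the part of this in the count of borders was not tested.

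The regions with the largest differences were taken from those of at least 5 bins past the yardstick on both scales, 12 per direction. They were chosen by their difference, so their values are descriptions. The mean PC1 of each region, and of each long stretch above as a whole, covers its bins past the yardstick, without the bins joined across a gap. The 12 higher regions lay on chromosomes 16 (5 regions), 13 and 15 (2 each), 4, 9 and 14. They differed by 1.10 to 1.48 units as deposited and by 0.653 to 1.04 with the trend removed. The Basal replicates differed by at most 0.145 in any of them, and 9 passed from a negative Basal mean to a positive Early mean.

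The largest by extent was chromosome 13 from 70850001 to 73800000 (2950 kb, 59 bins). Its mean PC1 was -0.345 and -0.332 in the Basal pair and 1.06 in Early. The Late pair had 0.0621 and 0.293. Each of its bins differed by at least 0.933 units, and 45 passed from B in both Basal libraries to A in Early. The 500 kb on either side, averaged together, had a mean of 0.910 in Basal and 1.22 in Early. In Basal the stretch thus averaged below 0 beside flanks that averaged above it, and in Early both averaged above 0.

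On chromosome 16, the region from 49950001 to 50200000 had 0.130 and 0.0883 in Basal and 1.58 in Early, the highest mean in Early of all 12. Nearby, 52600001 to 53700000 had -0.910 and -0.842 in Basal and 0.503 in Early, and all its 19 bins past the yardstick changed from B to A. The region from 50400001 to 51100000 had -0.396 and -0.434 in Basal and 0.911 in Early. Those 3 lie in the long higher stretch described above, and their flanks were also higher in Early by 0.853 to 1.13. Further along, 63000001 to 63550000 had -0.939 and -0.940 in Basal and 0.167 in Early. Near the distal end, 92750001 to 93550000 had 0.224 and 0.0956 in Basal and 1.45 in Early, beside flanks that averaged 1.19 in Basal and 1.67 in Early.

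The other higher regions lay on chromosomes 4, 9, 13, 14 and 15. Chromosome 15 from 6750001 to 7250000 had -0.00673 and 0.138 in Basal and 1.26 in Early, beside flanks that averaged -0.646 in Basal and -0.307 in Early. Chromosome 9 from 32250001 to 32900000 had -0.786 and -0.763 in Basal and 0.378 in Early. Of its 12 bins past the yardstick, 11 passed from B to A. Chromosome 14 from 49350001 to 49750000 had -0.0884 and -0.0769 in Basal and 1.07 in Early. Chromosome 13 from 31200001 to 31850000 had -0.560 and -0.628 in Basal and 0.507 in Early, and all 13 bins passed from B to A. Chromosome 15 from 27000001 to 27300000 (-0.260 and -0.120 in Basal, 0.921 in Early) and chromosome 4 from 87900001 to 88200000 (-0.148 and -0.199 in Basal, 0.932 in Early) completed the 12.

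The 12 lower regions were larger in size of difference, from -1.47 to -1.99 units, and more concentrated. Chromosome 16 held 6, chromosome 19 held 5 and chromosome 9 held 1. Of them 10 were parts of the 2 long lower stretches described above, and their flanks were lower by -1.08 to -1.60. All 12 passed from a positive Basal mean (0.997 to 1.54) to a negative Early mean. After trend removal their differences lay between -0.632 and -0.897 (median -0.720), a range that in size overlaps that of the higher regions (median 0.911).

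The largest was chromosome 16 from 32600001 to 32900000, with 1.52 and 1.55 in the Basal pair and -0.453 in Early, while the Late pair had 1.40 and 1.09. Chromosome 16 from 35450001 to 35800000 reached the lowest mean in Early of the 12, at -0.843 from 0.963 and 1.13 in Basal. On the same chromosome, 33400001 to 33750000 had 1.30 and 1.08 in Basal and -0.667 in Early, 32150001 to 32500000 had 1.57 and 1.51 against -0.203, and 33900001 to 34650000 had 1.30 and 1.20 against -0.467. On chromosome 19, the 5 regions from 41500001 to 46450000 had Basal values between 1.02 and 1.40 and Early values between -0.367 and -0.678. The largest of these was 45500001 to 45800000, with 1.35 and 1.32 in Basal and -0.491 in Early.

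The other 2 lay outside those stretches. Chromosome 16 from 6000001 to 6300000 had 1.09 and 1.03 in Basal and -0.454 in Early, and its Late values of -0.148 and -0.355 were also below Basal. Chromosome 9 from 106850001 to 107100000 had 1.01 and 0.980 in Basal and -0.472 in Early, with 0.803 and 0.433 in Late. Its flanks averaged 1.13 in Basal and 0.527 in Early. In these 24 regions Early lay outside the range of the 4 other libraries. Against Basal this was required of every bin, and picking the largest differences of 1 Early library also favours it against Late.

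**Figure D4:**
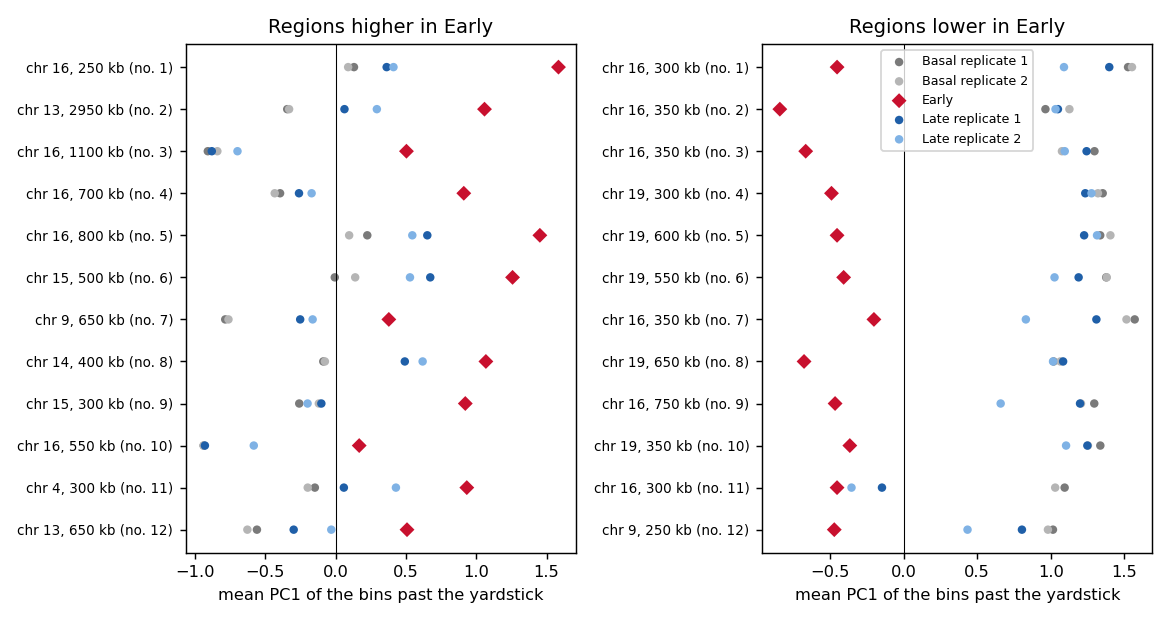
Mean PC1 over the bins past the yardstick (horizontal axis, PC1 units) in each library for the 12 regions per direction with the largest differences (vertical axis, chromosome, length and rank). The Early diamonds lie to the right of all 4 other libraries in the higher regions and to the left in the lower ones, and the Basal points of a region differ by at most 0.221. The place of Early against Basal follows from how the regions were chosen.

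**Figure D5:**
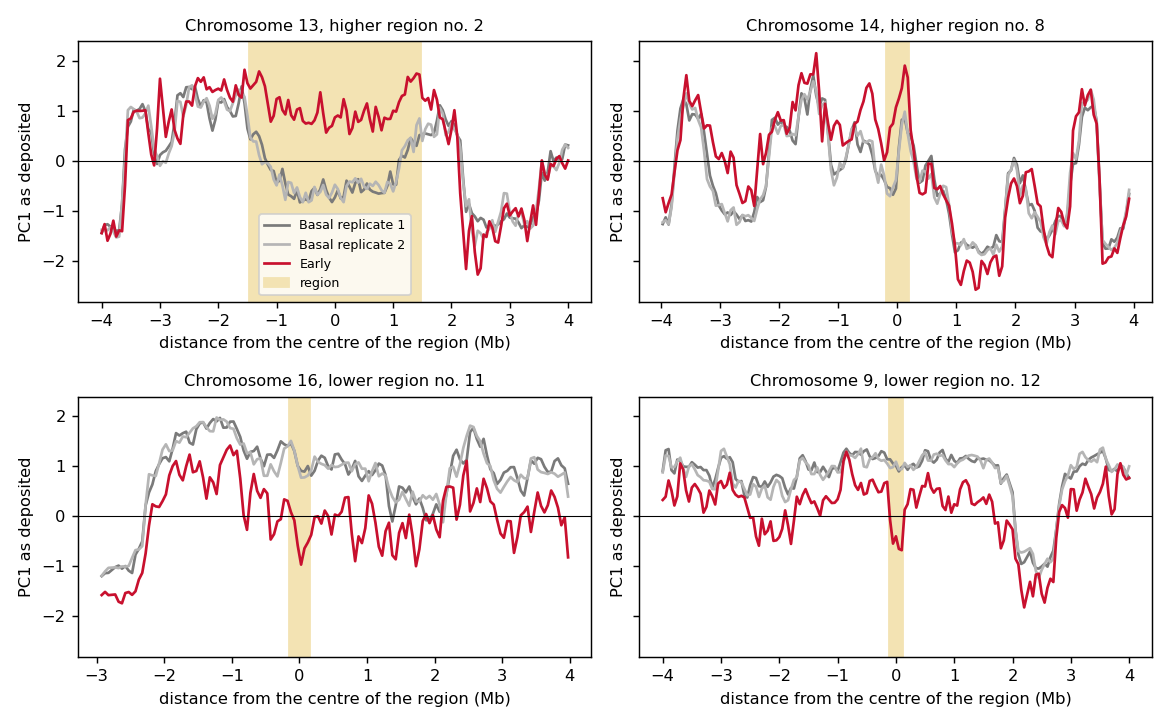
PC1 as deposited (vertical axis) against distance from the region's centre (horizontal axis, Mb) in the Basal libraries (grey) and Early (red), with the region shaded, for 2 higher regions (chromosomes 13 and 14) and 2 lower ones (chromosomes 16 and 9). On chromosome 13 the Basal libraries average -0.345 and -0.332 over the shaded 2950 kb and Early 1.06, while outside it the 3 profiles run closer together.

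A further 12 chromosomes had no region among those 24. For these the region of at least 5 bins with the largest difference was taken, a choice made after the values were seen. They differed by 0.695 to 1.13 units in size, 5 higher and 7 lower, and the Basal replicates differed by at most 0.151 in them. Chromosome 5 held the longest, from 75200001 to 77200000 (2000 kb), with 0.172 and 0.213 in the Basal pair and 1.28 in Early, and the Late pair had 0.629 and 0.855. It was weakly A in Basal and strongly A in Early. Chromosome 3 from 130450001 to 130950000 had -0.172 and -0.226 in Basal and 0.836 in Early, with Late at 0.967 and 0.449. Chromosome 10 from 114900001 to 115500000 had -0.542 and -0.543 in Basal and 0.418 in Early, beside flanks that averaged 0.367 in Basal and 0.438 in Early.

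Chromosome 8 from 18900001 to 19500000 had -0.904 and -0.881 in Basal and came to the border, 0.00158, in Early. Chromosome 17, which had few bins past the yardstick, had its largest difference from 67750001 to 68250000 (-0.0586 and -0.176 in Basal, 0.577 in Early). Chromosome 18 from 36100001 to 36450000 was lower, with 1.61 and 1.46 in Basal and 0.404 in Early. Chromosome 2 from 29850001 to 30150000 had 1.64 and 1.65 in Basal and 0.606 in Early. Both stayed in A.

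Chromosome 1 from 177050001 to 177300000 passed from A to B, at 0.556 and 0.459 in Basal and -0.431 in Early, with Late at -0.312 and -0.247. Chromosome 12 from 99700001 to 100000000 had 0.776 and 0.905 in Basal and -0.0659 in Early. Chromosome 6 from 148850001 to 149550000 had -0.152 and -0.234 in Basal and -1.02 in Early, beside flanks that averaged 0.677 in Basal and 0.455 in Early. Chromosome 11 from 56850001 to 57150000 had 0.115 and -0.0357 in Basal and -0.829 in Early, with Late at -0.625 and -0.790. Chromosome 7 from 11550001 to 11900000 had 1.32 and 1.27 in Basal and 0.441 in Early.

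On chromosome 7 PC1 of Late replicate 1 has the opposite sign to all other libraries (r of -0.925 with Basal replicate 1), so no Late value is compared there. Early and Basal share their sign on it (r of 0.955 and 0.956). Outside chromosome 7, the 3592 bins higher on both scales had a median PC1 of -0.245 and -0.235 in the Basal pair, 0.587 in Early, and 0.157 and 0.206 in the Late pair. The 3293 bins lower on both scales had 0.557 and 0.532 for Basal, -0.310 for Early, and 0.246 and 0.188 for Late. The bins were chosen by their difference from the same Basal libraries, so the place of Late between Early and Basal is not independent of that choice. Over all 44650 bins the medians were -0.124 and -0.121 (Basal), -0.0300 (Early), and -0.0794 and -0.0627 (Late).

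Chromosome ends held somewhat larger shares than the rest. In the first 5 Mb of bins of each autosome 14.3% of bins were higher and 14.8% lower as deposited, in the last 5 Mb 12.7% and 14.8%, and elsewhere 11.9% and 11.9%. After trend removal, the first 5 Mb had 11.6% lower and 9.91% higher bins and the last 5 Mb 14.0% and 10.2%, against 9.23% and 9.50% elsewhere. Each autosome gives about the same length to the ends, so short chromosomes, which had higher shares, weigh more there than elsewhere. How much of the excess this makes up was not tested.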

How the data were processed

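Hi-C of sorted hippocampal nuclei gave 1 table of PC1 per library. The deposited PC1 is a signed score per 50 kb bin, computed in windows of 100 kb per the file names, made with HOMER on mm9 per the submitters' processing notes. Each file has a mean near 0 and an SD near 1 on every autosome. Version, aligner, read filters and the setting of the sign are given by none of the sources used here. Tables were joined on the bin name, and autosomal bins with a value in all 5 libraries were kept. The 10 Mb running mean was taken over the bins within 5 Mb on either side, cut at chromosome ends. With 1 Early library no test was run: the yardstick is the 99th percentile of the absolute Basal replicate difference, and counting rules were checked on simulated data. Regions joined bins past it on both scales across at most 1 bin. Named were the 12 of at least 5 bins per direction with the largest mean difference, and the 3 longest as deposited. Members, lists and rules were chosen with earlier results of these data known. The fixed gene and marker lists were not used, since the gene table at hand (GRCm38.p6) is of another build, and for the same reason no sequence is shown. Python 3.11.15, numpy 2.4.6, pandas 2.3.3, scipy 1.17.1 and matplotlib 3.10.9 were used. Alternatives included other yardsticks, scalings, windows, sets of bins and leaving out either Basal library.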

Additional observations from a re-analysis of the deposited data

How the results depend on the processing

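The counts past the yardstick, given as deposited, with the trend removed and on both scales, depended on where it was set: the 95th percentile gave 18793, 15890 and 12799 bins, and the value that 1 in 1000 Basal differences exceeds gave 5339, 3432 and 2660. The Late replicates as yardstick, without chromosome 7, gave 3860, 2704 and 1992, and means of 11 bins gave 23331, 19441 and 14810 (both chosen after seeing the data). The other settings, which were scalings, means of 3 bins, bin sets, trend windows, chromosomes left out (the 6 of highest share also chosen after seeing the data) and a yardstick per chromosome, kept each count within 1.5 times. Aligned chromosome medians put 33.1% of the bins as deposited higher, against 49.7%. With a running median, 43.7% of the bins with the trend removed were higher. Without either Basal library the counts ran from 11774 to 12120, 9314 to 9703 and 7387 to 7679, and bins of opposite sign from 4868 to 5022. Requiring each library to pass 0 by 0.1 left 2354 of these. The SD ratio of 2.66 was 2.26 with the trend removed, 3.26 for means of 3 bins, and 2.68 to 2.72 without either Basal library. All 42 region differences kept their sign in all settings run. Leaving out either Basal library could not reverse any, since Early lay outside both Basal values in every bin used. Trend removal could not reverse the regions chosen on both scales, so only the long stretches were free to change sign under it. Some of the 42 overlap, since regions lie inside long stretches. Trend removal took 23 of the 42 below 1/1.5 of their size, the smallest to 0.198 of it. No paired analysis was possible, because the labels do not pair Early with a Basal library and Early has only 1 library. Every value rests on 1 Early library, and read depth is unknown.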
